A study of Homo sapiens with 4 samples.

Results

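BHLHE40 and 9 genes of the circadian clock (BHLHE41, PER1, PER2, PER3, CRY1, CRY2, CLOCK, NR1D1 and NR1D2) were followed in OVSAYO cells, a human line of ovarian clear cell carcinoma (CCC). The 10 genes were chosen by name, and every probe whose RefSeq accession leads to one of these symbols was taken, which gave 18 of 41000 non-control probes of the array and 10 of 17721 genes with a symbol. The study asked which genes respond to the hypoxia-mimicking agent CoCl2 in a manner that depends on Sp1, a transcription factor that binds GC-rich promoter elements. One condition was cells transfected with a scrambled negative control siRNA (NS-si) and another was cells transfected with a pool of siRNAs against Sp1 (Sp1-si). The remaining conditions were cells of both kinds that were further exposed to 0.5 mM CoCl2 for 4 h (NS-si → CoCl2 and Sp1-si → CoCl2). All cells thus carried siRNA, and the labels give 40 h of culture for each, whereas the text of the study gives a shorter time. CoCl2 was given in air, so oxygen itself was not lowered.

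RNA of each condition was hybridised to 1 single-colour array, and the 4 arrays shared a slide. There is no replicate, so no difference below was tested and each ratio compares a pair of arrays. Values are processed signals (background-subtracted intensities) of each array, and log2 ratios were taken after each array was set to its own 75th percentile on the log2 scale. The ± after a ratio is a technical SD, for a probe with 1 spot borrowed from the 50 probes with 10 spots nearest to it in signal. It is a spread between spots of the same arrays. Differences between cultures, labelling, hybridisation, arrays and scaling are not covered by it, so it understates the uncertainty of a ratio. A gene was counted as higher or lower when the ratio reached 2-fold (log2 ratio of 1 in size). The spots well above background numbered 33081 to 34542 of 43376 on an array, and the 75th percentile signal lay between 977 and 1287. Without scaling, the log2 ratios would shift by -0.23 for NS-si → CoCl2/NS-si, 0.23 for Sp1-si → CoCl2/Sp1-si, 0.40 for Sp1-si → CoCl2/NS-si → CoCl2 and -0.06 for Sp1-si/NS-si. SP1 itself gave signals of 553 (NS-si), 39.2 (Sp1-si), 429 (NS-si → CoCl2) and 38.7 (Sp1-si → CoCl2). Of 10 genes listed as responsive to hypoxia-inducible factors (HIFs), 9 could be measured, and 9 were higher with CoCl2 in both NS-si and Sp1-si cells, with median log2 ratios of 2.24 and 2.86. The CCC and epithelial markers NAPSA, PAX8, KRT7, KRT18 and EPCAM were well above background on all 4 arrays, whereas WT1, PTPRC and PECAM1 were not on any. The fibroblast marker DCN was well above background on all 4 arrays but dim, with signals of 15.4 to 29.4. In such bulk RNA, fewer cells with a transcript and less of it per cell cannot be told apart.

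The circadian clock is a feedback loop of transcription that runs in most cells with a period of about a day. CLOCK and its partner BMAL1 bind E-box elements and activate the PER and CRY genes, whose proteins return to the nucleus and repress that activity, while the nuclear receptors NR1D1 and NR1D2 (REV-ERB alpha and beta) repress BMAL1. BHLHE40 (DEC1) and BHLHE41 (DEC2) are basic helix-loop-helix repressors that bind the same E-boxes, and BHLHE40 is also a well known hypoxia-responsive gene.

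Promoter sequences are shown for the 5 genes near or past 2-fold below (BHLHE40, PER1, CRY1, BHLHE41 and CRY2) and for NR1D2, whose second annotated start has the most E-boxes. They are the 250 bases before the annotated start, 5′ to 3′ on the strand of the gene, from RefSeq on GRCh38.p14. Capitals mark an E-box (CACGTG), a core of the HIF binding site (ACGTG or GCGTG) or a GC box (GGGCGG), each on either strand, and the letters CACGTG contain ACGTG on both strands.
BHLHE40, chr3:4979187-4979436, plus strand: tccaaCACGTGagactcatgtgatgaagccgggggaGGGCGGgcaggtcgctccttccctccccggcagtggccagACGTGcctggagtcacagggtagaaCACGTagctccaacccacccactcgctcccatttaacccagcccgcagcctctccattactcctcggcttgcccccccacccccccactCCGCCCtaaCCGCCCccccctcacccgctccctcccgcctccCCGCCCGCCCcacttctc
PER1, chr17:8152405-8152654, minus strand: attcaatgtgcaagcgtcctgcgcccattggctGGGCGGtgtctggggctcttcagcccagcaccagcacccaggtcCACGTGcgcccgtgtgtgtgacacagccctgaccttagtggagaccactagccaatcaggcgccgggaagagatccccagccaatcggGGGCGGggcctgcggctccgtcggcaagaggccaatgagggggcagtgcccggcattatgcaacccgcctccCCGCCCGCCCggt
CRY1, chr12:107093550-107093799, minus strand: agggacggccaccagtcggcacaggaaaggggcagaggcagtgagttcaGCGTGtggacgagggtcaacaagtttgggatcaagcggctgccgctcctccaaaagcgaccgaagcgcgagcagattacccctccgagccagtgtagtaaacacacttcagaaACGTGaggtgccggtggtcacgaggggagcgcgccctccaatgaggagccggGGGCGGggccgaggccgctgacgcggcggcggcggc
BHLHE41, chr12:26125038-26125287, minus strand: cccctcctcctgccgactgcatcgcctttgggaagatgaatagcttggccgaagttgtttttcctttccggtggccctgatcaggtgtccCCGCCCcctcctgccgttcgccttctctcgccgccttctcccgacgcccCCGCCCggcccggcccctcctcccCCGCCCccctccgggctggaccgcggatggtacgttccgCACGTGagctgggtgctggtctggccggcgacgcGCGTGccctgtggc
CRY2, chr11:45846868-45847117, plus strand, the first annotated start: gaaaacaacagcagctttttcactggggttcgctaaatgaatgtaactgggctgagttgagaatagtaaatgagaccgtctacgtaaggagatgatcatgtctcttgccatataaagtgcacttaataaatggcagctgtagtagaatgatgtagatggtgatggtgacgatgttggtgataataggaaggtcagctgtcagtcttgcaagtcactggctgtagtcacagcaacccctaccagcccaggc
CRY2, chr11:45847225-45847474, plus strand, the second annotated start: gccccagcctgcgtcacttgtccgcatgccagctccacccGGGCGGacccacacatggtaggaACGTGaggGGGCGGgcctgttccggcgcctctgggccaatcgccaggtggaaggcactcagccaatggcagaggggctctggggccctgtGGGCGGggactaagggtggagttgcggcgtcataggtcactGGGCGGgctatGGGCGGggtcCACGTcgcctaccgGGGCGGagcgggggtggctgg
NR1D2, chr3:23945871-23946120, plus strand, the second annotated start: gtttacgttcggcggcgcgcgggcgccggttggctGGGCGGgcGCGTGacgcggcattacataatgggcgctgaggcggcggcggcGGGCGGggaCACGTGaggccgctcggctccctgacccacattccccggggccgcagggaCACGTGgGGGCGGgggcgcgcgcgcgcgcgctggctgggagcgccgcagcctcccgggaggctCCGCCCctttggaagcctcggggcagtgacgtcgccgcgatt

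The reference held 14 promoters of 300 bases (250 before and 50 after the start) for the 10 genes. PER3, CRY2, CLOCK and NR1D2 each have a second window, and those of PER3 overlap, so the 14 are not independent. The E-box was in 4 of the 14 (BHLHE40, PER1, BHLHE41 and the second start of NR1D2) and in 0 of those of CRY1 and CRY2, against 7.26% of all 35116 promoters of the same length. It began 245 bases before the start in BHLHE40, 173 in PER1, 48 in BHLHE41 and 155 and 105 in NR1D2. A HIF core was in 12 of the 14, against 48.4% of all promoters. The BHLHE40 window had 4 HIF core matches, of which 2 lay outside the E-box, and the PER1 and BHLHE41 windows had 3 each, of which 1 lay outside it. A GC box was in 12 of the 14, against 45.0% of all promoters, with 5 in BHLHE40, 4 in PER1 and 3 in BHLHE41. These are matches of letters, and binding was not measured on these arrays.

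All 10 genes were expressed above background. In 9 of them every probe was well above background on all 4 arrays, and in PER3 this held for 2 of 3 probes. A gene with several probes is given by the probe with the highest mean signal, with the other probes beside it.

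**Figure D1:**
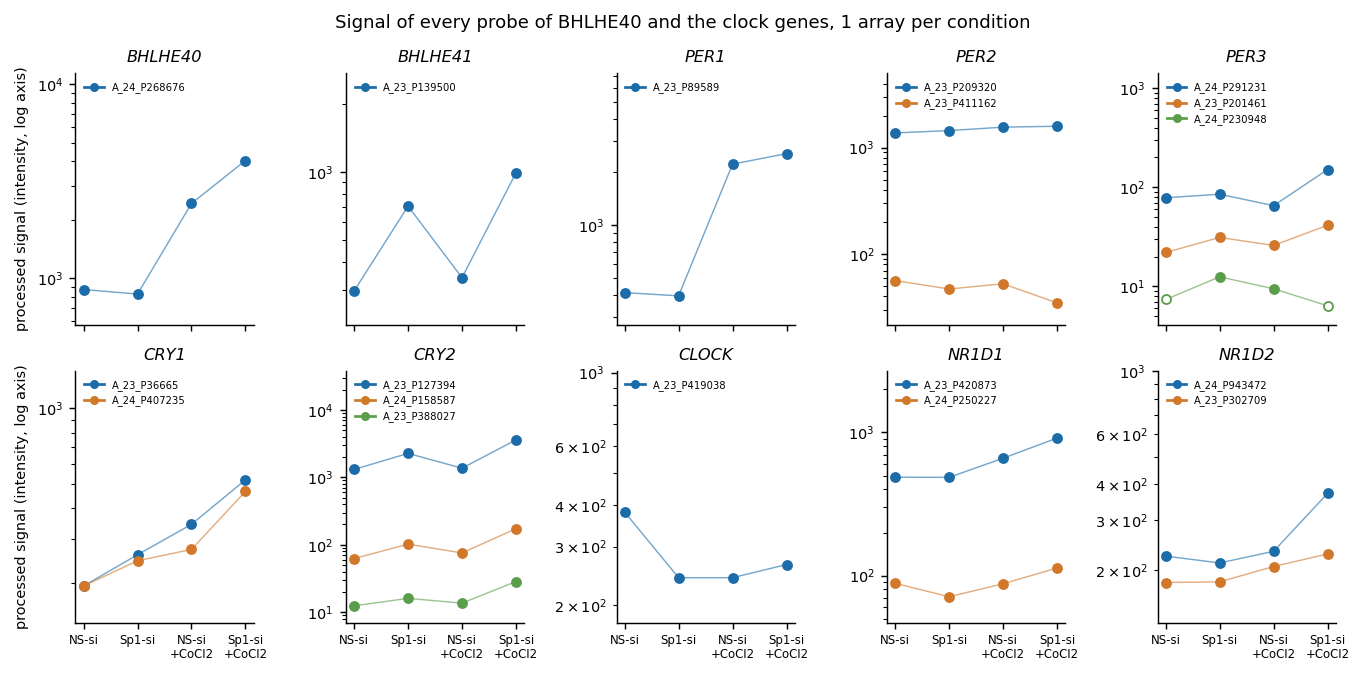
Processed signal (intensity, log axis) of every probe of the 10 genes in the 4 conditions, 1 array each; filled points were well above background and open points were not. BHLHE40 and PER1 were high on both CoCl2 arrays, BHLHE41 and the brightest probe of CRY2 were high on both Sp1-si arrays, and CLOCK was highest on the NS-si array.

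With CoCl2 in NS-si cells, 3 of the 10 genes were at least 2-fold higher (PER1, BHLHE40 and CRY1) and 0 were lower. Over all 15128 genes that could be tested, 4.23% were higher and 3.54% lower. The median log2 ratio of the 10 genes was 0.41, against 0.00 over all genes, and 8 of the 10 ratios were above 0, against 50.4% of all genes. In Sp1-si cells CoCl2 gave 2 genes that were at least 2-fold higher (PER1 and BHLHE40) and 0 that were lower, where 3.67% of 15088 genes were higher and 4.00% lower. The median there was 0.59, and 8 of the 10 ratios were above 0, against 49.8% of all genes. Without scaling, the medians of the 10 genes and of all genes became 0.19 and -0.22 under NS-si, and 0.82 and 0.23 under Sp1-si.

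BHLHE40, the E-box-binding repressor, was read by 1 probe (A_24_P268676). Its signal was 876 (NS-si), 830 (Sp1-si), 2429 (NS-si → CoCl2) and 4041 (Sp1-si → CoCl2). Both CoCl2 arrays thus lay well above both arrays without CoCl2, and the highest signal was in the cells with Sp1 siRNA and CoCl2. The log2 ratio with CoCl2 was 1.70 ± 0.0327 in NS-si cells (3.24-fold), which ranked 158 of 14622 genes. In Sp1-si cells it was 2.06 ± 0.0312 (4.16-fold), which ranked 81 of 14453 genes. The Sp1 siRNA alone left a log2 ratio of -0.02 ± 0.0289, a step no larger than 2 technical SDs. With CoCl2, Sp1-si cells were above NS-si cells by a log2 ratio of 0.34 ± 0.0325. The CoCl2 ratio was thus higher under Sp1-si, by 0.36 ± 0.0439, which did not reach 2-fold. Without scaling this difference was 0.81, where that of all genes had a median of 0.47. After scaling, all 9 measured genes of the HIF-responsive list had a difference above 0, against 51.4% of all genes. Their differences had a median of 0.52 and a range of 0.21 to 1.23. The Sp1-si/NS-si ratios of this list without CoCl2 had a median of -0.73, and 1 of 9 was above 0. VEGFA (-1.81) and ADM (-1.45) were at least 2-fold lower there, whereas BHLHE40 stood at -0.02. With CoCl2 the list had a median of 0.33 with 6 of 9 above 0, and BHLHE40 had 0.34.

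BHLHE41, the close relative of BHLHE40, had a different pattern. Its signal (A_23_P139500) was 298 (NS-si), 707 (Sp1-si), 341 (NS-si → CoCl2) and 993 (Sp1-si → CoCl2). Here the arrays of Sp1-si cells were the high ones, with and without CoCl2. The ratio of Sp1-si to NS-si cells was 1.30 ± 0.0411 (2.47-fold) without CoCl2 and 1.14 ± 0.041 (2.21-fold) with it. The log2 ratio with CoCl2 was 0.42 ± 0.0439 under NS-si and 0.26 ± 0.0403 under Sp1-si, short of 2-fold in both.

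The PER genes encode the period proteins, which join the CRY proteins in the repressor complex. PER1 (A_23_P89589) had signals of 414 (NS-si), 397 (Sp1-si), 2210 (NS-si → CoCl2) and 2534 (Sp1-si → CoCl2). Its CoCl2 ratios exceeded those of the other 9 genes in both kinds of cells. They were 2.64 ± 0.0372 (6.24-fold, rank 25 of 14622 genes) under NS-si and 2.45 ± 0.0329 (5.46-fold, rank 50 of 14453) under Sp1-si. Sp1-si and NS-si cells without CoCl2 differed by less than 2 technical SDs in PER1 (-0.01 ± 0.0325). With CoCl2 the log2 ratio of Sp1-si to NS-si cells was -0.20 ± 0.035, and it turned to 0.20 without scaling.

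PER2, unlike PER1, was past 2-fold in none of the comparisons. The brighter probe (A_23_P209320) gave 1373 (NS-si), 1445 (Sp1-si), 1556 (NS-si → CoCl2) and 1587 (Sp1-si → CoCl2). Its CoCl2 ratio was 0.41 ± 0.0363 under NS-si and -0.09 ± 0.032 under Sp1-si. The dimmer PER2 probe (A_23_P411162) gave 56.3, 47.0, 52.6 and 34.8 in the same order, and CoCl2 ratios of 0.13 ± 0.114 and -0.66 ± 0.11. Both probes thus had a lower CoCl2 ratio under Sp1-si (differences of -0.50 in the brighter and -0.79 in the dimmer one). Between the CoCl2 arrays, the ratio of Sp1-si to NS-si cells was -0.37 ± 0.0329 in the brighter and -0.99 ± 0.112 (1.99-fold lower) in the dimmer PER2 probe. Without scaling, the ratio with CoCl2 of the brighter probe in Sp1-si cells was 0.14, so its direction there rests on the scaling.

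The PER3 probes were dim. The brightest one (A_24_P291231) gave 78.4 (NS-si), 85.1 (Sp1-si), 65.3 (NS-si → CoCl2) and 151 (Sp1-si → CoCl2), so that only the array with both Sp1 siRNA and CoCl2 stood out. Its CoCl2 ratio was -0.04 ± 0.0759 under NS-si and 0.60 ± 0.0748 under Sp1-si. The ratio of Sp1-si to NS-si cells was 0.17 ± 0.0711 without and 0.81 ± 0.0962 with CoCl2. A second PER3 probe (A_23_P201461) gave 22.0, 31.2, 25.9 and 41.4 in the same order. Its CoCl2 ratios were 0.46 ± 0.156 and 0.18 ± 0.145, so the probes disagreed on which cells had the higher ratio. The remaining PER3 probe (A_24_P230948) was well above background in Sp1-si and NS-si → CoCl2 cells, with signals of 12.5 and 9.47, and not in NS-si or Sp1-si → CoCl2 cells, with 7.38 and 6.37.

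The cryptochromes CRY1 and CRY2 are the main repressors of CLOCK and BMAL1. CRY1 (A_23_P36665) had signals of 195 (NS-si), 260 (Sp1-si), 344 (NS-si → CoCl2) and 518 (Sp1-si → CoCl2). Its CoCl2 ratio was 1.05 ± 0.0484 (2.07-fold) under NS-si, just past the threshold, and 0.77 ± 0.0517 (1.70-fold) under Sp1-si. The other CRY1 probe (A_24_P407235) gave 195, 246, 273 and 466, and CoCl2 ratios of 0.71 ± 0.0502 and 0.69 ± 0.0531. Under 6 of 10 processing settings CRY1 was past 2-fold in NS-si cells, with a range of 0.82 to 1.09.

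CRY2, like BHLHE41, was higher on both arrays of Sp1-si cells. The brightest probe (A_23_P127394) gave 1310 (NS-si), 2269 (Sp1-si), 1367 (NS-si → CoCl2) and 3595 (Sp1-si → CoCl2). The ratio of Sp1-si to NS-si cells was 0.85 ± 0.0293 (1.80-fold) without CoCl2 and 0.998 ± 0.0316 with it, just under the 2-fold threshold. The 2 dimmer probes had ratios of 0.76 ± 0.0679 (A_24_P158587) and 0.42 ± 0.202 (A_23_P388027) without CoCl2, and 0.80 ± 0.0945 and 0.66 ± 0.19 with it. All 3 CRY2 probes were thus higher in Sp1-si cells. The CoCl2 ratios of CRY2 were smaller, at 0.29 ± 0.0318 under NS-si and 0.44 ± 0.0302 under Sp1-si.

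CLOCK, the activating factor, had signals (A_23_P419038) of 381 (NS-si), 242 (Sp1-si), 242 (NS-si → CoCl2) and 265 (Sp1-si → CoCl2). It was the 1 gene of the 10 with scaled ratios below 0 in all 4 comparisons, and each fell short of 2-fold. The CoCl2 ratio was -0.43 ± 0.0502 under NS-si and -0.10 ± 0.0531 under Sp1-si. The ratio of Sp1-si to NS-si cells was -0.60 ± 0.0556 without CoCl2 and -0.26 ± 0.0486 with it. Without scaling, the ratios in Sp1-si cells with CoCl2 to Sp1-si and to NS-si → CoCl2 cells were both 0.13.

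The REV-ERB receptors stayed short of 2-fold in all 4 comparisons. NR1D1 (A_23_P420873) had signals of 487 (NS-si), 486 (Sp1-si), 661 (NS-si → CoCl2) and 914 (Sp1-si → CoCl2). Its CoCl2 ratios were 0.67 ± 0.0416 under NS-si and 0.68 ± 0.0374 under Sp1-si, a difference of 0.02 ± 0.0534. The other NR1D1 probe (A_24_P250227), with signals of 71.2 to 113, gave CoCl2 ratios of 0.22 ± 0.0765 and 0.44 ± 0.0752.

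The NR1D2 probes disagreed on which array was highest after scaling. The brighter probe (A_24_P943472) gave 224 (NS-si), 212 (Sp1-si), 233 (NS-si → CoCl2) and 372 (Sp1-si → CoCl2), with CoCl2 ratios of 0.28 ± 0.056 and 0.58 ± 0.055. The other NR1D2 probe (A_23_P302709), with signals of 181 to 228, gave 0.41 ± 0.0608 and 0.09 ± 0.0588. Between the CoCl2 arrays, the log2 ratio of Sp1-si to NS-si cells was 0.28 ± 0.051 in the brighter and -0.25 ± 0.0597 in the other NR1D2 probe.

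**Figure D2:**
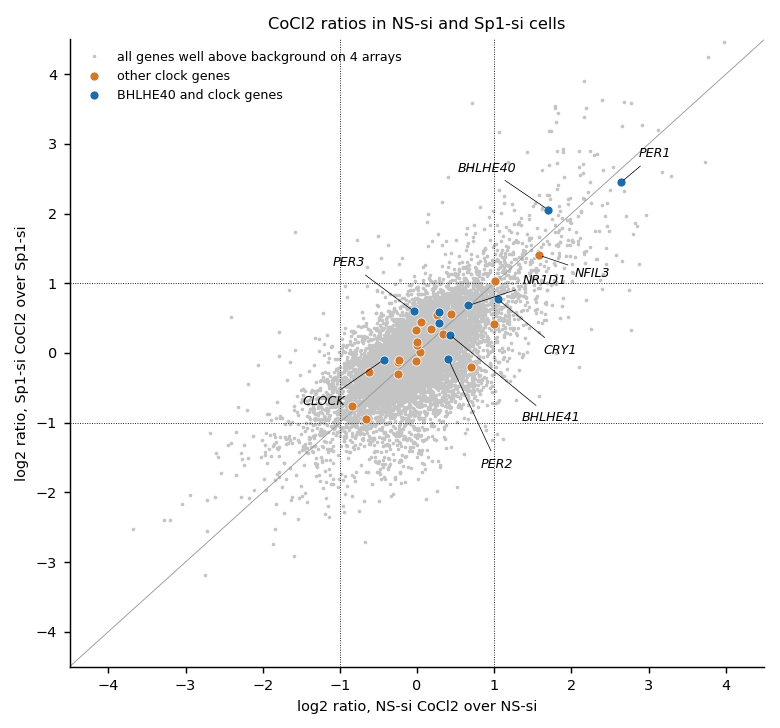
Log2 ratio with CoCl2 under NS-si (x axis) and under Sp1-si (y axis) for all 14285 genes well above background on 4 arrays (grey), the 10 genes (blue) and other clock genes (orange); dotted lines mark 2-fold and the diagonal marks equal ratios. PER1 (2.64 and 2.45) and BHLHE40 (1.70 and 2.06) lie past 2-fold on both axes and CRY1 (1.05 and 0.77) on the x axis.

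The CoCl2 ratio under Sp1-si minus that under NS-si reached 2-fold in 0 of the 10 genes, in either direction. Over 14285 genes, 0.973% had a difference of at least 2-fold above 0 and 2.88% below 0. Among the 10 genes the differences ran from -0.50 in PER2 to 0.64 in PER3, with a median of 0.08 against 0.01 over all genes, and 6 were above 0, against 51.4% of all genes. BHLHE40 stood at 0.36 and PER1 at -0.19. Every comparison here draws on the same 4 arrays, so the ratios of a gene are not independent of each other.

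Sp1 silencing without CoCl2 gave 1 gene of the 10 that was at least 2-fold higher, BHLHE41, and 0 that were lower. Over 15202 genes, 6.23% were higher and 6.18% lower. The ratios of the 10 genes had a median of 0.09, against -0.01 over all genes, and 6 were above 0, against 48.9% of all genes. With CoCl2, BHLHE41 was again the 1 gene past 2-fold and 0 genes were lower, where 7.15% of 15072 genes were higher and 8.07% lower. The median there was 0.24, against -0.02 over all genes, and 7 ratios were above 0, against 48.8% of all genes. CRY2 was nearest to the threshold, and it passed under 6 of 10 processing settings, with a range of 0.82 to 1.40. Without scaling, CRY2 and PER3 joined BHLHE41 at 3 genes, and all 10 ratios were above 0, against 74.6% of all genes.

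**Figure D3:**
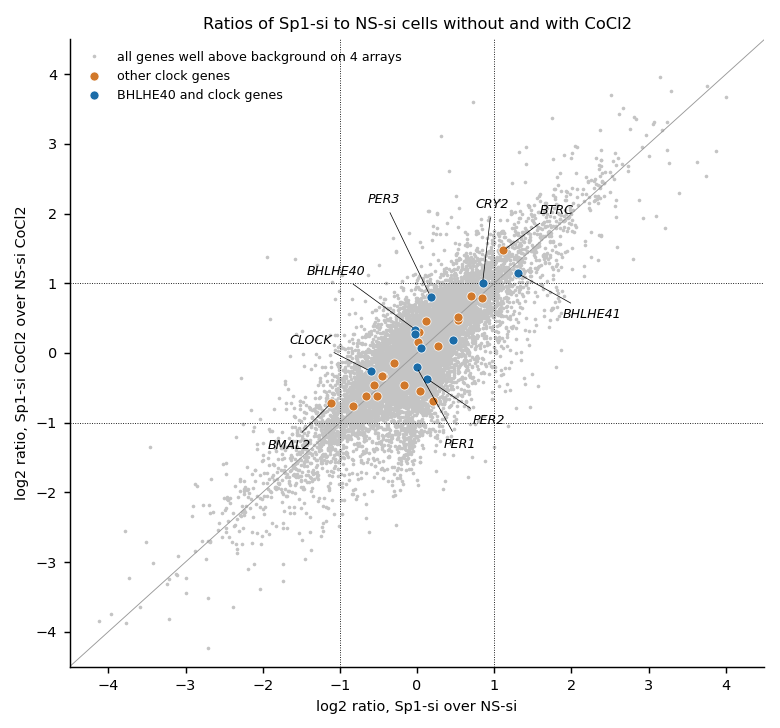
Log2 ratio of Sp1-si to NS-si cells without CoCl2 (x axis) and with CoCl2 (y axis) for all 14285 genes well above background on 4 arrays (grey), the 10 genes (blue) and other clock genes (orange); dotted lines mark 2-fold. BHLHE41 (1.30 and 1.14) lies past 2-fold on both axes, CRY2 (0.85 and 0.998) just short of it, and BHLHE40 (-0.02 and 0.34) near the centre.

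The order of the conditions within each gene was read against the spread between spots, for the brightest probe of the gene only. For BHLHE40, PER1 and NR1D2 the lowest values, in Sp1-si and NS-si cells, were not separated by more than 2 technical SDs. The same held in NR1D1 for the pair without CoCl2 and for the pair with it. All steps of BHLHE41, CRY1 and CRY2 exceeded 2 technical SDs. In the dimmest CRY2 probe (A_23_P388027) the CoCl2 ratio under NS-si, 0.36 ± 0.19, did not. In PER2 the NS-si and Sp1-si → CoCl2 arrays were not separated, in PER3 the NS-si → CoCl2 and NS-si arrays, and in CLOCK the arrays of Sp1-si cells with and without CoCl2.

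The rest of the clock was read from a list of 24 other genes, of which 23 had a probe. By the brightest probe of each gene, 3 of 21 measured genes were at least 2-fold higher with CoCl2 in NS-si cells (NFIL3, NOCT and RORA) and 0 were lower. Of the NS-si arrays, RORA was well above background only on the one with CoCl2, so it could count only as higher. Among the 20 genes well above background on both, NFIL3 and NOCT were higher. The kinase gene CSNK1E was counted by its brightest probe, with scaled log2 values of 5.45 (NS-si) and 6.16 (NS-si → CoCl2). Its dimmer probe A_24_P918436 had -0.46 and 0.57, just past 2-fold, and its probe A_23_P29263 had -0.33 and 0.57, short of it. In Sp1-si cells NFIL3, NOCT and RORA were higher among 22 and 0 were lower. Over all genes the shares were 4.23% higher and 3.54% lower under NS-si, and 3.67% and 4.00% under Sp1-si. The median log2 ratios of this list were 0.02 and 0.16. Those of the 10 genes, which were chosen by name with earlier results known, were 0.41 and 0.59.

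NFIL3, a bZIP repressor of clock output genes, had signals of 2667 (NS-si), 3097 (Sp1-si), 6808 (NS-si → CoCl2) and 9595 (Sp1-si → CoCl2). Its log2 ratios with CoCl2 were 1.58 ± 0.029 under NS-si and 1.40 ± 0.0291 under Sp1-si, past 2-fold under 9 of 9 processing settings. NOCT, a rhythmic phosphatase formerly called a deadenylase, had signals of 298, 182, 511 and 437. Its CoCl2 ratios were 1.004 ± 0.0469 and 1.04 ± 0.0484, at the threshold, and those of its dimmer probe were 1.25 ± 0.19 and 0.53 ± 0.179. NOCT was past 2-fold in 5 of 9 settings under NS-si (0.78 to 1.02) and in 7 of 9 under Sp1-si (0.83 to 1.26). RORA, a nuclear receptor that activates BMAL1, was not well above background in NS-si cells, and its signals in Sp1-si, NS-si → CoCl2 and Sp1-si → CoCl2 cells were 9.29, 26.8 and 45.1. Its CoCl2 ratio was at least 4.24-fold in NS-si cells, taken against the lowest signal well above background there, and 2.05 ± 0.222 on the log2 scale in Sp1-si cells. Both RORA calls were lost under the normexp correction, whose offset of 50 exceeds these signals, at 0.75 and 0.42, and held under the other 8 of 9 settings. The other RORA probe was well above background in NS-si → CoCl2 cells only, and its ratio there was at least 1.63-fold, a bound that does not reach 2-fold. CIART, a repressor of CLOCK and BMAL1, fell just short of 2-fold in NS-si cells at 1.99-fold, with dim signals of 14.8, 14.6, 25.2 and 22.7. The scaled log2 values of this CIART probe in Sp1-si cells were -6.24 without and -5.82 with CoCl2. The other CIART probe was well above background on the CoCl2 arrays only, with signals of 5.24, 4.74, 11.3 and 13.8 in the same order. In the other direction, the lowest CoCl2 ratios among genes above background on both arrays were -0.85 under NS-si (TIPIN) and -0.95 under Sp1-si (HLF).

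By the brightest probe of each gene, BTRC was higher and BMAL2 was lower in Sp1-si/NS-si cells without CoCl2, among 22 measured genes of the list. With CoCl2, BTRC was higher among 21 and 0 were lower by that probe. These counts were no larger a share than that of all genes, where 6.23% were higher and 6.18% lower without CoCl2 and 7.15% and 8.07% with it. BTRC, a ubiquitin ligase subunit that targets PER proteins, had signals of 284 (NS-si), 592 (Sp1-si), 158 (NS-si → CoCl2) and 576 (Sp1-si → CoCl2). Its Sp1-si/NS-si ratios were 1.12 ± 0.052 without and 1.47 ± 0.0452 with CoCl2, against 0.37 ± 0.0679 and 0.65 ± 0.09 in its other probe. BMAL2, a paralog of BMAL1, had signals of 310, 138, 274 and 219, with ratios of -1.11 ± 0.0603 without and -0.72 ± 0.0537 with CoCl2. Without CoCl2 both calls were lost under the normexp correction, at 0.97 for BTRC and -0.78 for BMAL2. NOCT had Sp1-si/NS-si ratios of -0.66 without and -0.62 with CoCl2 in its brighter probe. Its dimmer probe was past 2-fold lower with CoCl2, with scaled log2 values of -4.88 (NS-si → CoCl2) and -6.41 (Sp1-si → CoCl2). Without CoCl2 that probe had -6.13 (NS-si) and -6.95 (Sp1-si), short of 2-fold. BMAL1, the usual partner of CLOCK, had signals of 671, 935, 483 and 887 in the order above and did not reach 2-fold in any of these comparisons.

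**Figure D4:**
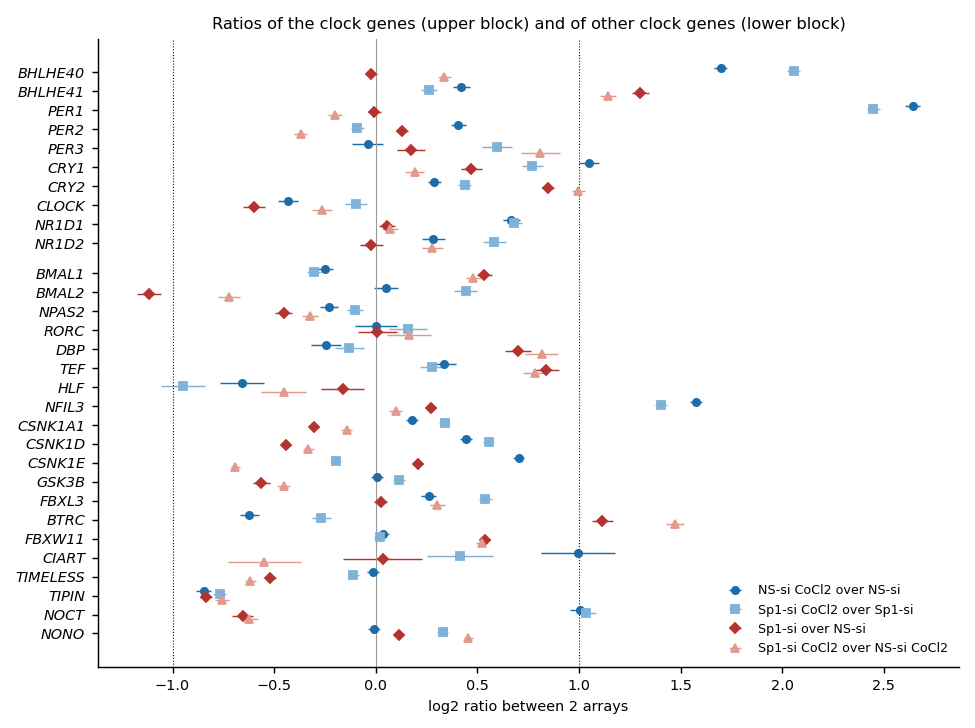
Log2 ratios of the 10 genes (upper block) and of the other clock genes above background throughout (lower block) in the 4 comparisons, with technical SDs as error bars and dotted lines at 2-fold. The blue symbols (CoCl2 ratios) reach past 2-fold for PER1, BHLHE40, CRY1, NFIL3 and NOCT, and the red symbols (Sp1-si to NS-si) for BHLHE41 and BTRC above and BMAL2 below.

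The 5 genes whose 4 scaled log2 values, centred per gene, lay nearest to those of BHLHE40 were RNF217, BNIP3, JUNB, ZFP36 and HSPA1A among 14285 genes. Their Euclidean distances to it were 0.105, 0.116, 0.213, 0.237 and 0.239 log2 units over 4 arrays, and HSPA1A has a near-identical paralog that its probe may also read. BNIP3, a mitophagy receptor on the list of HIF-responsive genes, had CoCl2 ratios of 1.72 under NS-si and 2.22 under Sp1-si. JUNB, an AP-1 subunit, had ratios of 1.65 and 1.76, and ZFP36, an mRNA-destabilising zinc finger protein, of 1.58 and 2.26. RNF217 had ratios of 1.75 and 1.92. PER1 was not among them.

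The CoCl2 ratio of BHLHE40 ranged from 1.47 to 1.71 under NS-si and from 1.99 to 2.28 under Sp1-si over the 10 settings, and PER1 from 2.42 to 2.65 and from 2.31 to 2.68. BHLHE41 ranged from 1.101 to 1.34 in Sp1-si/NS-si cells without CoCl2, past 2-fold in 10 of 10 settings. With CoCl2 its range was 0.99 to 1.54, past 2-fold in 9 of 10.

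A threshold of 1.5-fold counted more of the 10 genes, against larger shares of all genes. With CoCl2 under NS-si it counted 4 as higher, NR1D1 in addition to the 3 above, and 0 as lower, against 11.2% and 10.2% of all genes. Under Sp1-si it counted 5 as higher (PER1, BHLHE40, CRY1, NR1D1 and PER3) and 0 as lower, against 10.4% and 11.4%. In Sp1-si/NS-si without CoCl2, BHLHE41 and CRY2 were higher and CLOCK was lower, 2 and 1 genes against 13.9% and 14.1%. With CoCl2, BHLHE41, CRY2 and PER3 were higher and 0 genes were lower, 3 genes against 16.6% and 18.3%. The difference of the CoCl2 ratios was past 1.5-fold above 0 in 1 gene, PER3, against 5.43% of all genes, and below 0 in 0, against 8.13%.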

How the data were processed

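The authors deposited the intensities of each array as the scanner software (Agilent Feature Extraction 10.5.1.1) wrote them, with the background subtracted and trends removed, and 1 array per condition. The headers name genome build hg18. A deposited value table equals this processed intensity multiplied by 1 constant per array, so it is on a linear scale. Its constants and the normalization behind them are not given in the sources used here.

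Outlier and control spots were left out, and log2 signals were scaled to the 75th percentile and averaged over spots. A probe was well above background when at least 50% of its spots were, and otherwise its ratio is a bound or is not given. Symbols came from RefSeq accessions (28463 of 29877 spots matched). The technical SD is that of 10-spot probes, for a probe with 1 spot the median over the 50 nearest in signal. A probe's location is not given, since no genome of the build was used here. Named are all 10 genes, the other clock genes past 2-fold in any comparison by their brightest probe and the 5 genes nearest to BHLHE40. BMAL1, CIART, CSNK1E, TIPIN and HLF were added after their values were seen. Members and lists were chosen with earlier results of these data known. Counting was tested on simulated data. Alternatives were other scalings, background correction, outliers kept, all probes of a gene, no filter on dim probes and a 1.5-fold threshold. Python 3.11.15, numpy 2.4.6, pandas 2.3.3, matplotlib 3.10.9, R 4.3.3 and limma 3.58.1 were used. The number of arrays limits the precision. Some results are not reported here.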

Additional observations from a re-analysis of the deposited data

Results flagged for a closer look

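In PER2 and PER3 the CoCl2 log2 ratio had opposite signs in NS-si and Sp1-si cells. The share of all genes with opposite signs was not counted, so this is not a trait particular to the 10 genes. Over all genes the quartiles of the CoCl2 ratio were -0.27 and 0.27 under NS-si and -0.29 and 0.27 under Sp1-si, so small ratios were common. PER2 had 0.41 under NS-si and -0.09 under Sp1-si, a difference of -0.50, and its dimmer probe had 0.13 and -0.66. PER3 had -0.04 ± 0.0759 under NS-si, smaller than its technical SD, and 0.60 under Sp1-si, a difference of 0.64. Its second probe had 0.46 and 0.18, the opposite order. With 1 array per condition neither difference was tested. Over the processing settings PER2 in Sp1-si cells ranged from -0.38 to 0.14 and PER3 in NS-si cells from -0.26 to 0.21, so the sign of each small ratio was not fixed.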

How the results depend on the processing

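The CoCl2 ratio of BHLHE40 in NS-si cells was 1.47 without scaling, 1.62 from the authors' value table and 1.58 after a normexp correction, and in Sp1-si cells 2.28, 2.005 and 1.99, with 2.16 under median scaling. Its ratio of Sp1-si to NS-si cells was -0.077 without scaling, -0.082 with normexp and 0.016 from the value table. With CoCl2 that ratio was 0.73 without scaling, 0.45 under median scaling and 0.40 from the value table. The difference of its CoCl2 ratios was 0.81 without scaling, 0.46 under median scaling and 0.41 with normexp. In Sp1-si → CoCl2/NS-si → CoCl2 cells the count of higher genes, 1 with 75th percentile scaling, was 3 without scaling and 2 under median scaling, the percentile over spots well above background on all arrays, quantile normalization and the value table. The difference of CoCl2 ratios was above 2-fold in 1 gene without scaling, PER3 at 1.09, in place of 0. At 1.5-fold, 5 genes were higher with CoCl2 in Sp1-si cells (10.4% of all genes), 2 higher and 1 lower in Sp1-si/NS-si (13.9% and 14.1%), 3 higher with CoCl2 (16.6%), and 1 difference was above 0 (5.43%). No ratio past 2-fold changed sign under these settings. Of the 50 ratios of the 10 genes, 47 moved by more than 1 technical SD without scaling and 0 with outliers kept or with no filter on dim probes. Leaving out the scaling shifts a given comparison by the same amount in every gene. The normexp correction used median signals, chosen after seeing the data, because a mean signal column was not used here. No paired analysis was possible because each condition has 1 array. Technical SDs had a median of 0.319 among the 52 dimmest and 0.0276 among the 52 brightest 10-spot probes for NS-si → CoCl2/NS-si, which limits the dim PER3 and CRY2 probes most.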
